A study of Mus musculus with 8 samples.

Results

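Uhrf1, the DNA methyltransferases and the TET enzymes were followed in mouse trophectoderm as 9 named genes, of which 8 could be read. They are Uhrf1, Uhrf2, Dnmt1, Dnmt3a, Dnmt3b, Dnmt3l, Tet1, Tet2 and Tet3. A gene was read from the row that the platform annotation pairs with exactly 1 symbol, and from the row with the highest mean where a gene has several. Each of the 8 genes had 1 such row, and Tet1 was not analysed here. They are 8 of 14860 genes on the array with such a row. The family was chosen by gene name with its diet differences already known from these data, and Uhrf1 heads it because of that difference, so the diet values below describe the genes and are not independent evidence. The row of a gene was selected on its mean log2 signal over the 8 arrays.

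The trophectoderm is the outer cell layer of the blastocyst, from which the placenta forms. It was cut from the abembryonic side of blastocysts at embryonic day 4.5. The high fat diet group came from C57BL/6J dams fed Teklad 06414 from weaning, and the control diet group from C57BL/6J dams fed Lab Diet 5015. Both groups of dams were mated to C57BL/6J males at 16 weeks of age, so all embryos share the strain, the sire strain and the age. Each sample was trophectoderm pooled from 5 blastocysts and hybridised to 1 Affymetrix array, with 4 high fat diet pools and 4 control diet pools. The sources used here do not say which dams gave which pool, so errors and p-values measure the spread between pools. In a pool, fewer cells of a type and less RNA per cell cannot be told apart.

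DNA methylation is kept through cell division because Uhrf1 binds DNA that is methylated on 1 strand after replication and brings Dnmt1 there to copy the mark. Dnmt3a and Dnmt3b place new methylation, and Dnmt3l is their cofactor without catalytic activity of its own. The TET enzymes oxidise methylated cytosine and so open the way to its removal. In the mouse embryo, methylation inherited from the gametes falls during cleavage and is laid down again around implantation, and the lineages of the placenta end with less of it than the embryo proper.

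Uhrf1 and Dnmt3b had the largest differences among the 8 genes, and both were lower in the high fat diet pools. Measured means of Uhrf1 differed by -1.71 on the log2 scale and those of Dnmt3b by -1.22. Tet3 read higher by 0.48, Uhrf2 higher by 0.27 at a signal below background, and Dnmt1, Dnmt3a, Dnmt3l and Tet2 differed by less than 0.15. By limma with Benjamini-Hochberg adjustment over 16015 probe sets, 0 of the 8 genes passed an adjusted p of 0.05, against 0.00624% of all tested probe sets (1 probe set). Their limma adjusted p-values ran from 0.118 to 0.941. At an unadjusted limma p under 0.05, 2 of the 8 were lower (Uhrf1 and Dnmt3b) and 2 were higher (Uhrf2 and Tet3). The same count over all tested probe sets was 1.79% lower and 30.1% higher. Since the diet difference took part in choosing the group, nothing is read from these shares.

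The values are log2 signals, in which 1 unit is a doubling, and the number of arrays limits their precision. The whole array read higher in the high fat diet pools, with a median difference of 0.22 over all tested probe sets. Only 21.3% of tested probe sets lay below 0. The median of the 8 genes was -0.03, and 6 of the 8 lay below the median of all probe sets and 2 above it. The count below was 4 of 8 after quantile normalization and 5 of 8 after cyclic loess. Array medians were 5.76 to 5.96 in the high fat diet pools and 5.60 to 5.71 in the control diet pools. Background was taken as the 95th percentile of 843 rows of chemosensory receptors on the same array, families known from sensory neurons. It lay at 6.15 to 6.65 on high fat diet arrays and at 5.87 to 6.13 on control diet arrays. High fat diet replicate 3 had the fewest tested probe sets above it, 4736, against 5317 to 6086 on the other high fat diet arrays and 5943 to 6636 on control diet arrays. The mean correlation of that array with the others was 0.832, against 0.879 to 0.890 for the rest.

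The tissue label was looked at on 10 measured trophectoderm markers, of which all 10 lay above background on at least 4 arrays and 8 on all 8. Of 11 measured inner cell mass markers 5 lay above background on all 8 arrays, and of 11 primitive endoderm markers 6 did. Markers of other lineages were therefore detected too, and the count does not by itself settle the label. Cdx2, the lineage transcription factor, averaged 7.72 ± 0.27 in high fat diet pools and 7.64 ± 0.26 in control diet pools (SD, n = 4 each). Eomes averaged 8.18 ± 0.54 and Gata2 7.57 ± 0.56 in high fat diet pools, against 8.04 ± 0.55 for Eomes and 7.14 ± 0.17 for Gata2 in control diet pools. Of the 10 markers 2 were lower at an unadjusted limma p under 0.05 (1.79% of all tested probe sets were), and both are given after their values were seen. Gata3, a trophectoderm transcription factor, read at 10.70, 10.40, 9.53 and 7.97 in high fat diet replicates 1 to 4 and at 11.23, 11.11, 11.42 and 10.81 in control diet replicates 1 to 4. Its groups lay apart, lower with the high fat diet as for 0.855% of tested probe sets, by -1.49 (limma adjusted p = 0.132). Fgfr2, a receptor for fibroblast growth factors, read at 8.11, 7.13, 7.65 and 6.74 in high fat diet replicates 1 to 4 and at 9.94, 9.31, 9.68 and 7.81 in control diet replicates 1 to 4. Its groups overlapped, with a difference of -1.78 (limma adjusted p = 0.115). These differences run in the direction of Uhrf1 and Dnmt3b, and their part in those results was not tested.

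The sequences before the starts of Uhrf1, Dnmt3b and Tet3 are shown because these genes had the largest differences among members above background, and because the CpG is the substrate of the whole enzyme family. They come from RefSeq on GRCm38.p6, matched by symbol, and hold the 250 bases before an annotated start. All 9 named genes had at least 1 such window and 16 in all. Uhrf1 has 2, of which the one with more CpGs is printed. It lies at chr17:56304063-56304312 on the + strand, that of Dnmt3b at chr2:153649199-153649448 on the + strand and that of Tet3 at chr6:83441679-83441928 on the - strand. Each runs 5′ to 3′ towards the gene, and capitals mark CpG dinucleotides.
Uhrf1: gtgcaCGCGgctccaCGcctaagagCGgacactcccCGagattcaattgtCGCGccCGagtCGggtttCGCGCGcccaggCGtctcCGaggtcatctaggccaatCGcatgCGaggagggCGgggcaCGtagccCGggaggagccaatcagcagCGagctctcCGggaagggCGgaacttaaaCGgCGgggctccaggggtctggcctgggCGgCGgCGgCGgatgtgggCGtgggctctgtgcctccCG
Dnmt3b: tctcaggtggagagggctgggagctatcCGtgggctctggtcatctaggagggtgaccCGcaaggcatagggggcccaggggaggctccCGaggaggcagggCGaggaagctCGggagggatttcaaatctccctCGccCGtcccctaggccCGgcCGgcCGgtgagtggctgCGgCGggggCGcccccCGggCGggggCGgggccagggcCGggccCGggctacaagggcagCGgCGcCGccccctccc
Tet3: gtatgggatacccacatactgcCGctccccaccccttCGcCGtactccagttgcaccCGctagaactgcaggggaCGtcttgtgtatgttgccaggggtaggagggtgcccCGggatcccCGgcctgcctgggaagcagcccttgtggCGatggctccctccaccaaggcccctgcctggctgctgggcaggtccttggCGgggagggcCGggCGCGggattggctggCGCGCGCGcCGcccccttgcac

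The printed window of Uhrf1 held 30 CpGs, that of Dnmt3b 21 and that of Tet3 17, against a median of 6 over 32851 windows of all genes. The share of windows with fewer CpGs was 94.1% for Uhrf1, 83.7% for Dnmt3b and 76.5% for Tet3. The other window of Uhrf1 held 10 CpGs, and 62.2% of windows had fewer. The printed window was chosen by its CpGs, so its rank follows in part from that choice. Over the 16 windows of the family the count ran from 2, at the most upstream of 3 starts of Dnmt1, to 51 at Tet2. The 3 windows of Dnmt3l held 5, 4 and 3 CpGs. The motif TTTNNCGC, a relaxed form of the site of E2F factors that act in S phase, was searched on both strands, and it contains a CpG itself. Both Uhrf1 windows held 1 match, and a single window of Dnmt1, the third of its 3, held 2. The other 13 windows of the family held 0, and 4.28% of all windows held at least 1. A match describes these letters and is not evidence of a bound site.

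Uhrf1 (probe set 6851232), the reader of half-methylated DNA, read at 6.44, 6.14, 6.74 and 5.48 in high fat diet replicates 1 to 4. In control diet replicates 1 to 4 it read at 9.27, 8.21, 6.40 and 7.76. Control diet replicate 3 lay among the high fat diet pools and the other control diet pools lay above all of them, so the groups overlapped. Means were 6.20 ± 0.54 with the high fat diet and 7.91 ± 1.19 with the control diet (SD, n = 4 each), a difference of -1.71 with an SE of 0.58. That is a 3.27-fold higher mean in the control diet pools, and 1.01% of all tested probe sets had a lower difference. Uhrf1 lay above background on 2 of 4 high fat diet arrays and on 4 of 4 control diet arrays, so its low values are not exact. With values below background raised to it, the difference was -1.48, and with the 99th percentile of the receptors as background it was -0.90. Leaving out an array moved the measured difference between -2.21, without control diet replicate 3, and -1.26, without control diet replicate 1. Its spread within diets, an SD of 0.92, was wider than that of 89.9% of tested probe sets.

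Uhrf2 (probe set 6869070), the paralog of Uhrf1, read at 4.92, 5.00, 4.93 and 5.15 in high fat diet replicates 1 to 4 and at 4.83, 4.76, 4.70 and 4.66 in control diet replicates 1 to 4. All 8 values were below background, so no level and no change is read from them. The groups lay apart, higher with the high fat diet, as they did for 25.4% of all tested probe sets. The difference of 0.27 (SE 0.09) was 0.05 above the median of all probe sets.

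**Figure D1:**
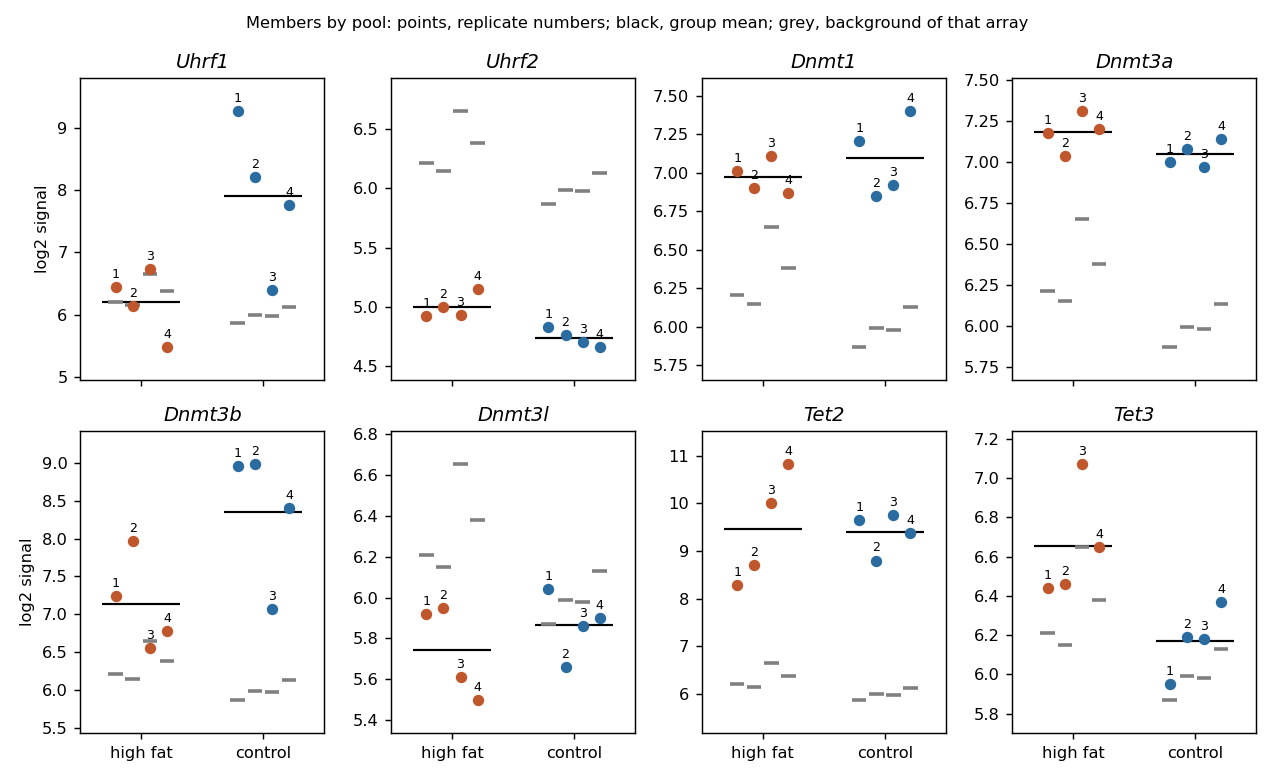
Log2 signal of the 8 genes in each pool, with high fat diet pools on the left and control diet pools on the right of each panel. Points carry replicate numbers, black lines are group means and grey dashes mark the background of each array, the 95th percentile of the receptors. Uhrf1 and Dnmt3b were high in control diet replicates 1, 2 and 4, and Uhrf2 lay below background in all 8 pools.

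Dnmt1 (probe set 6993722), the maintenance methyltransferase that Uhrf1 recruits, read at 7.01, 6.90, 7.11 and 6.87 in high fat diet replicates 1 to 4. In control diet replicates 1 to 4 it read at 7.21, 6.85, 6.92 and 7.40. The groups overlapped, and all 8 values lay above background. Means were 6.97 ± 0.11 and 7.10 ± 0.25 with the high fat diet and the control diet (SD, n = 4 each). Their difference of -0.12 had a 95% interval of -0.44 to 0.19. It was -0.02 without control diet replicate 4 and -0.21 without control diet replicate 2.

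Dnmt3a (probe set 6792945), a de novo methyltransferase, was the steadiest member above background. It read at 7.18, 7.04, 7.31 and 7.20 in high fat diet replicates 1 to 4 and at 7.0, 7.08, 6.97 and 7.14 in control diet replicates 1 to 4. The groups overlapped and differed by 0.14 (95% interval -0.07 to 0.34). After median centring of the arrays the difference was -0.05 and after cyclic loess it was -0.13, so its direction is not settled. Only 7.34% of tested probe sets had a smaller SD within diets.

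Dnmt3b (probe set 6882397), the other de novo methyltransferase, read at 7.24, 7.97, 6.55 and 6.78 in high fat diet replicates 1 to 4. In control diet replicates 1 to 4 it read at 8.96, 8.98, 7.07 and 8.40. As for Uhrf1, control diet replicate 3 lay within the range of the high fat diet pools and the other control diet pools lay above them. Means were 7.13 ± 0.63 with the high fat diet and 8.35 ± 0.89 with the control diet (SD, n = 4 each), a difference of -1.22 with an SE of 0.49 and a 2.33-fold higher mean in the control diet pools. Of all tested probe sets, 2.47% had a lower difference. Dnmt3b lay above background on 3 of 4 high fat diet arrays and on 4 of 4 control diet arrays. Without control diet replicate 3 the difference was -1.65, and without control diet replicate 2 it was -1.01. By limma it did not pass over all probe sets (adjusted p = 0.142, and 0.100 to 0.526 over the settings tried).

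Dnmt3l (probe set 6769032), the inactive cofactor of the de novo enzymes, read at 5.92, 5.95, 5.61 and 5.50 in high fat diet replicates 1 to 4 and at 6.04, 5.66, 5.86 and 5.90 in control diet replicates 1 to 4. It lay above background on 0 of 4 high fat diet arrays and on 1 of 4 control diet arrays. The measured difference of -0.12 (SE 0.14) is therefore one between values at background.

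**Figure D2:**
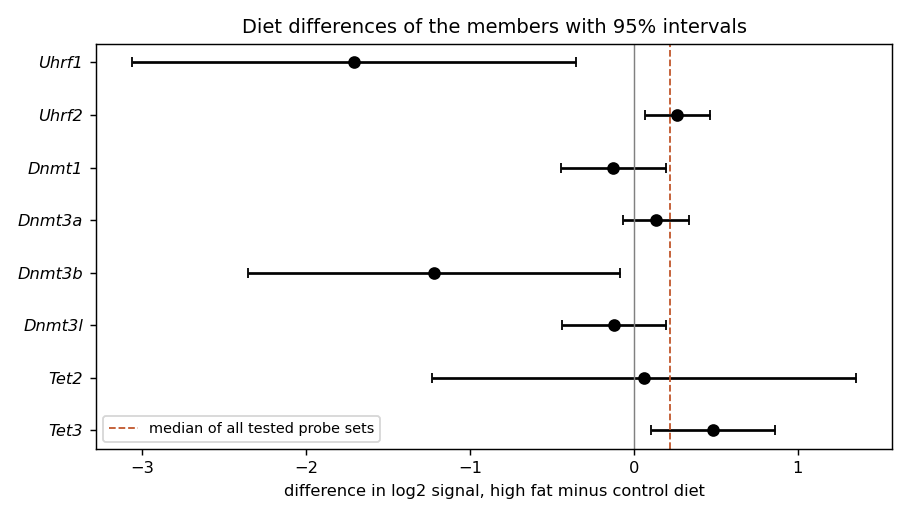
Difference in mean log2 signal, high fat minus control diet, for the 8 genes, with 95% intervals from limma. The dashed line is the median of all tested probe sets, 0.22. The intervals of Uhrf1 and Dnmt3b lie below it, that of Tet2 is among the widest, and those of Dnmt1 and Dnmt3l lie below the dashed line and include 0.

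Tet2 (probe set 6909555), a TET dioxygenase, read at 8.29, 8.70, 10.00 and 10.82 in high fat diet replicates 1 to 4. In control diet replicates 1 to 4 it read at 9.65, 8.80, 9.75 and 9.37. The high fat diet pools spanned the whole control diet range on both sides, with an SD of 1.17 against 0.43 (n = 4 each). The difference of 0.06 had a 95% interval of -1.23 to 1.36, so these arrays do not exclude a change of either direction within that width. Without high fat diet replicate 4 the difference was -0.40, and without high fat diet replicate 1 it was 0.45.

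Tet3 (probe set 6955032), the TET enzyme known to oxidise the paternal genome in the zygote, read at 6.44, 6.46, 7.07 and 6.65 in high fat diet replicates 1 to 4 and at 5.95, 6.19, 6.18 and 6.37 in control diet replicates 1 to 4. All 4 high fat diet values lay above all 4 control diet values, as for 25.4% of tested probe sets. Means were 6.65 ± 0.29 with the high fat diet and 6.17 ± 0.17 with the control diet (SD, n = 4 each), a difference of 0.48 with an SE of 0.16. It did not pass by limma (adjusted p = 0.122). The background itself differed in the same direction, at a mean of 6.35 on high fat diet arrays and 5.99 on control diet arrays. Tet3 lay 0.22 to 0.41 above background in the high fat diet pools and 0.08 to 0.24 above it in the control diet pools, so 0.12 of its difference remained when each array's background was subtracted. The part that the background has in its reading was not tested further.

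The genes were then compared over the 8 pools, after subtracting each array's median, to see which varied with Uhrf1. By Pearson r over all 8 pools Dnmt3b followed it most closely, at 0.85 (exact permutation p = 0.008, adjusted to 0.055 over 7 relations). Its Spearman rho was 0.67 (exact permutation p = 0.083, adjusted to 0.224). Without control diet replicates 1 and 2, the pools farthest from the median of Uhrf1, r was 0.62 (n = 6, exact permutation p = 0.192), so the relation rests in part on those pools. With the diet means subtracted, r was 0.68 (exact permutation p = 0.063, adjusted to 0.444). Both genes were lower with the high fat diet, which was known when the family was chosen. The r over all pools holds that difference in part and is not independent of it. The p with diet means subtracted takes the 8 centred values as exchangeable, though centring ties the values within each diet. The adjusted p passed 0.05 when high fat diet replicate 2 (r = 0.91) or 3 (r = 0.92) was left out.

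Dnmt1 had r = 0.75 with Uhrf1 (exact permutation p = 0.035, adjusted to 0.123) and rho = 0.69 (exact permutation p = 0.069, adjusted to 0.224). Without the 2 farthest pools r was 0.94 (n = 6, exact permutation p = 0.010), and with the diet means subtracted it was 0.46 (exact permutation p = 0.246, adjusted to 0.662). Its rho, and its r without the 2 farthest pools, were above those of Dnmt3b, so which gene followed Uhrf1 most closely depends on the measure. Tet3 ran the other way, with r = -0.64 (exact permutation p = 0.084, adjusted to 0.15), rho = -0.57 (exact permutation p = 0.151, adjusted to 0.264) and r = -0.20 without the 2 farthest pools (n = 6, exact permutation p = 0.644). With the diet means subtracted its r was -0.22 (exact permutation p = 0.602, adjusted to 0.702), so the relation over all pools holds the diet difference in part. Without high fat diet replicate 3 its r was -0.85, at an adjusted exact permutation p that rounds to 0.05 and counts as passed. Of the 7 relations, 0 passed after adjustment for either coefficient, and 2 passed at an unadjusted p under 0.05 for r. The remaining coefficients were 0.64 for Dnmt3a, 0.61 for Dnmt3l, -0.17 for Uhrf2 and -0.13 for Tet2. Without the 2 farthest pools r was -0.86 for Uhrf2 (n = 6, exact permutation p = 0.007), whose values lie below background on all arrays. The value of Dnmt3a was -0.34 when array medians were not subtracted.

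**Figure D3:**
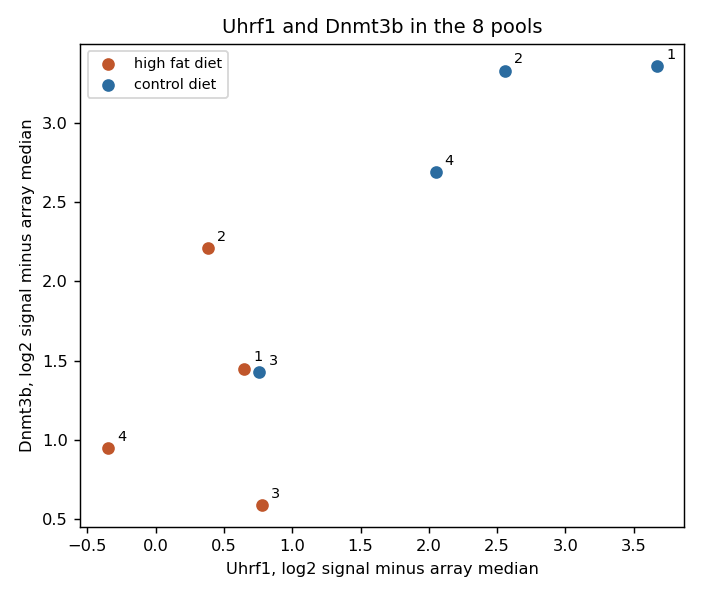
Uhrf1 on the x axis and Dnmt3b on the y axis, each as log2 signal minus the median of its array, with 1 point a pool and replicate numbers beside the points. Control diet replicates 1, 2 and 4 stand at the upper right, and control diet replicate 3 stands among the high fat diet pools.

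Among 5682 named genes above background on at least 4 arrays, 27 (0.475%) had a higher r with Uhrf1 than Dnmt3b did. The 5 highest, given as a description over 8 arrays, were Dctn5 (r = 0.943), Fam174c (0.937), Man2a1 (0.935), Abcf3 (0.926) and Dsc2 (0.918). Dctn5 encodes a dynactin subunit, Man2a1 a Golgi mannosidase, Abcf3 an ATP-binding cassette protein and Dsc2 a desmosomal cadherin. Dctn5 read at 5.90, 5.50, 5.51 and 5.63 in high fat diet replicates 1 to 4 and at 9.90, 9.24, 6.85 and 7.77 in control diet replicates 1 to 4. It lay above background on 0 of 4 high fat diet arrays, and its measured means were 5.63 with the high fat diet and 8.44 with the control diet (limma adjusted p = 0.115). With values below background raised to it, the difference was -2.09, and -1.32 with the 99th percentile of the receptors. Dctn5 and Man2a1 lay above background on 0 of 4 high fat diet and 4 of 4 control diet arrays each, so they entered the comparison through the control diet pools alone, where the mean of Uhrf1 was higher, and the choice of genes in part fixes their r. With the diet means subtracted, r with Uhrf1 was 0.871 for Dctn5, 0.948 for Fam174c, 0.837 for Man2a1, 0.895 for Abcf3 and 0.902 for Dsc2. On each of the 5 genes, control diet replicate 1 read highest and control diet replicate 3 lowest of the control diet pools, as on Uhrf1. The 5 genes were picked by their r over these same arrays. Their shared order and their r with the diet means subtracted therefore follow in part from that choice.

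Markers of other cells that a dissected piece could hold were read on the same pools. Each list was summarised as the mean of its members, each centred over the 8 arrays, with the shift of the array medians removed. Of 12 inner cell mass markers 11 were measured, and the list ran from -0.09 to 0.36 in high fat diet pools and from -0.50 to 0.63 in control diet pools. Its value was -0.34, 0.63, -0.50 and -0.24 in control diet replicates 1 to 4, highest in replicate 2, while Uhrf1 was highest in replicate 1. Both were lowest in replicate 3 of these pools. Nanog, a pluripotency factor, read at 6.32, 7.59, 6.46 and 7.18 in high fat diet replicates 1 to 4 and at 8.38, 8.26, 6.18 and 6.54 in control diet replicates 1 to 4. Nanog was highest in control diet replicates 1 and 2, as Uhrf1 and Dnmt3b were. Its difference of -0.45 was 1 of 2 below 0 in the list, against 9 above 0 and a list median of 0.35. Single genes, named after their values were seen, move the list mean. Utf1 read at 11.38 and 11.52 in high fat diet replicates 1 and 3, and Tdgf1 at 10.33 in control diet replicate 2. Pou5f1 reached its highest value, 11.72, in control diet replicate 2 and was 7.83 in control diet replicate 1, and Sox2 lay below background on all 8 arrays.

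The 10 trophectoderm markers ran from -0.66 to 0.12 in high fat diet pools and from -0.04 to 0.38 in control diet pools on the same measure. The 11 primitive endoderm markers ran from -0.06 to 0.11 in high fat diet pools and from -0.11 to 0.10 in control diet pools. Among them Gata4 differed by 0.25, Gata6 by 0.31 and Sox17 by 0.24. The 11 uterine markers ran from -0.01 to 0.21 with the high fat diet and from -0.11 to -0.03 with the control diet, and Ltf, Muc1 and Calb1 lay below background on all 8 arrays. Of the 11, 4 lay above background on all 8 arrays, and the groups were apart with the high fat diet higher on 5, against 25.4% of tested probe sets. Col1a1 differed by 0.55 and Col1a2 by 0.45, both fibrillar collagens named after their values were seen. The 6 measured blood and immune markers ran from 0.01 to 0.09 with the high fat diet and from -0.10 to -0.01 with the control diet. Ptprc and Cd74 lay below background on all 8 arrays, and Cx3cr1 differed by 0.27. What part other cells in a pool have in the levels of Uhrf1 and Dnmt3b was not tested.

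Around the enzymes, 7 lists of genes that work with them or depend on them held 121 genes, of which 94 were measured. By limma 0 of the 94 passed in either direction, with adjusted p-values from 0.115 to 0.998. At an unadjusted limma p under 0.05, 18 were higher and 2 lower, against 30.1% and 1.79% of all tested probe sets. The groups were apart with the high fat diet higher on 19 of the 94 (20.2%), against 25.4% of all tested probe sets, and with it lower on 0, against 0.855%.

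Partners of maintenance methylation had 12 of 16 genes measured and a median difference of 0.12, with 9 below the median of all probe sets. Hdac2, a histone deacetylase that binds Dnmt1, read at 5.68, 10.38, 6.40 and 11.28 in high fat diet replicates 1 to 4 and at 10.71, 11.04, 10.94 and 12.31 in control diet replicates 1 to 4. High fat diet replicates 1 and 3 were below background and the other pools far above it, with a measured difference of -2.81 (SE 1.29, limma adjusted p = 0.172). Pclaf, the PCNA-associated factor, differed by 0.71 at values below background on all 8 arrays, as did Suv39h2, a histone methyltransferase, by -0.55. Kat5, an acetyltransferase, differed by 0.32. Hells, the chromatin remodeller needed for methylation of repeats, was looked at after its values were seen, and it ran from 4.13 to 8.34 over high fat diet pools and from 4.21 to 9.73 over control diet pools.

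The list of readers of methylated CpGs took in the Mbd family by name, and not every member binds the mark. It had 6 of 10 genes measured, with a median difference of 0.18. Mbd3, of the NuRD complex, differed by 1.10 (SE 0.75), with high fat diet replicate 3 at 10.74 and the other high fat diet pools between 7.17 and 7.67, against 6.87 to 7.39 in control diet pools. Mbd6 differed by 0.38, and Mbd1 (0.18) and Mbd4 (0.18) lay below background on all 8 arrays.

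Genes of demethylation and base excision repair had 17 of 22 measured, a median difference of 0.29 and 7 whose groups were apart with the high fat diet higher, against 25.4% of all tested probe sets. Of the 17, 8 lay below background on all 8 arrays, among them Smug1, Neil2, Gadd45b, Apobec1 and Cxxc4 of the 7. The background itself was 0.36 higher on high fat diet arrays, so no rise of the list is read from that count. Ung, the uracil DNA glycosylase, read at 7.51, 7.27, 7.82 and 7.39 in high fat diet replicates 1 to 4 and at 6.81, 6.89, 6.96 and 7.0 in control diet replicates 1 to 4. The groups lay apart with a difference of 0.58 (SE 0.13), or 0.36 above the median of all probe sets, and Ung did not pass by limma (adjusted p = 0.115). Gadd45b differed by 0.34, Neil1, a repair glycosylase, by 0.36 and Cxxc4, a CpG-binding partner of Tet2, by 0.33, and these 3 lay below background on all 8 arrays. The 2 genes of the list that were lower at an unadjusted limma p under 0.05, given after their values were seen, were Idh1, an isocitrate dehydrogenase, by -1.75 (limma adjusted p = 0.134), and Ogt, the O-GlcNAc transferase that binds TET enzymes, by -0.59 (limma adjusted p = 0.148). Both lay above background on all 8 arrays, and their groups overlapped.

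Maternal factors and proteins that protect imprints had 8 of 11 measured and a median difference of -0.06. Trim28, the corepressor that holds methylation at imprints, read at 6.79, 7.18, 6.94 and 7.57 in high fat diet replicates 1 to 4 and at 7.42, 8.25, 7.31 and 7.45 in control diet replicates 1 to 4. The groups overlapped, with a difference of -0.49 (SE 0.25, limma adjusted p = 0.207). Ooep, an oocyte protein, differed by 0.93, Zfp445 by -0.68 and Tle6 by 0.12, the last below background on all 8 arrays. Zfp445 lay above background on 0 of 4 high fat diet arrays and on 1 of 4 control diet arrays. Its difference is therefore one between values at background, and it was 0.22 with values below background raised to it.

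The cycle that makes the methyl donor had 15 of 23 genes measured and a median difference of 0.44, with 9 above the median of all probe sets. Mthfd2, the mitochondrial folate enzyme, read at 6.30, 6.67, 6.23 and 6.31 in high fat diet replicates 1 to 4 and at 5.82, 5.64, 5.65 and 5.74 in control diet replicates 1 to 4. The groups lay apart by 0.66 (SE 0.11), with Mthfd2 above background on 2 of 4 high fat diet arrays and on 0 of 4 control diet arrays, and an adjusted limma p of 0.115. Tyms, thymidylate synthase, differed by 0.48 and Gnmt, which consumes the methyl donor, by 0.47. Mat1a differed by 0.26 below background.

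Genes of S phase and targets of E2F, a group to which human UHRF1 is known to belong, had 23 of 26 measured and a median difference of 0.09. Of these, 19 lay below and 4 above the median of all probe sets. On the centred measure the list was -0.36, 0.43, -0.30 and 0.56 in control diet replicates 1 to 4, and Uhrf1 was highest in replicate 1. Of the 23 genes, 6 lay below background on all 8 arrays. Tk1, named after its values were seen, ran from 4.37 to 10.21 over the pools. What part S phase or E2F factors have in the level of Uhrf1 was not tested. Tyms (0.48), E2f2 (0.37), Orc1 (0.29) and Rb1 (0.19) had the smallest limma p-values, and E2f2, Orc1 and Rb1 lay below background on all 8 arrays.

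Germline genes that are silenced by promoter methylation in the mouse embryo had 15 of 16 measured, and 12 of these lay below background on all 8 arrays. The median difference was 0.15, below the 0.22 of all probe sets. Dazl, of germ cells, read at 4.46, 4.39, 4.46 and 4.59 in high fat diet replicates 1 to 4 and at 4.23, 4.28, 4.27 and 4.34 in control diet replicates 1 to 4, all below background. Tdrd1 (0.26), Dpep3 (0.38) and Mov10l1 (0.17) differed by similar amounts at or near background, so no level is read from them. In high fat diet replicates 1 to 4 Sycp3, named after its values were seen, read at 8.18, 5.80, 5.09 and 9.71. In control diet replicates 1 to 4 it read at 7.99, 5.59, 5.03 and 6.29. It lay above background on 2 of 4 arrays of each diet, with a difference of 0.97 (limma adjusted p = 0.537). Asz1 read at 7.23 in control diet replicate 4 and lay below background on the other arrays. These files hold no measurement of DNA methylation.

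**Figure D4:**
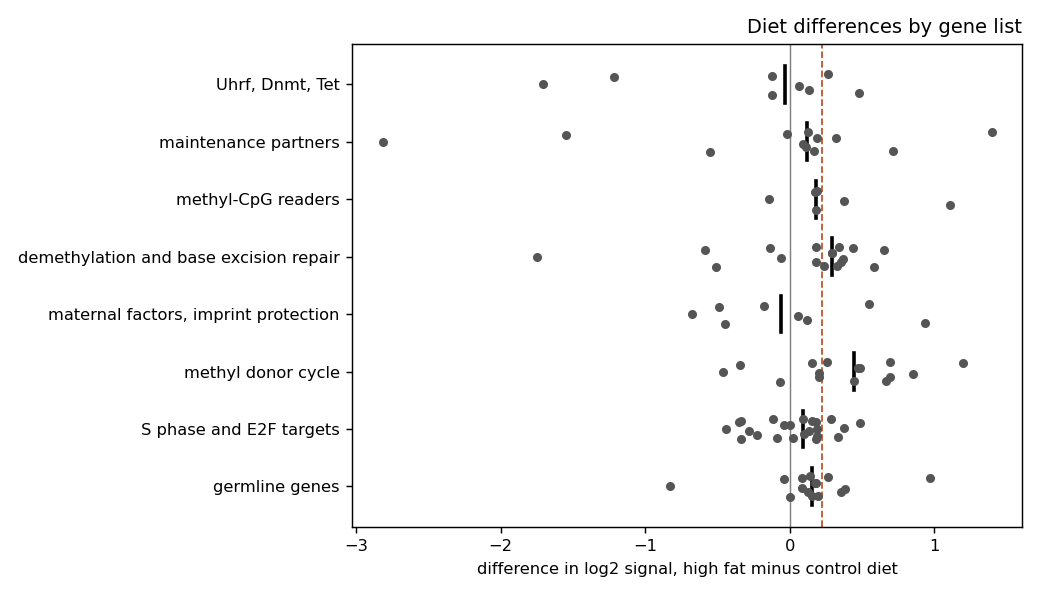
Difference in mean log2 signal, high fat minus control diet, of each measured gene (points) in the enzyme family and the 7 lists around it, with black bars at the list medians. The dashed line is the median of all tested probe sets, 0.22, and the medians of the lists run from -0.06 for maternal factors to 0.44 for the methyl donor cycle.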

How the data were processed

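The authors deposited log2 signals per probe set for 8 arrays. RMA and Partek are named in the submitters' processing notes, while versions, settings and genome build are not given. Per the labels' protocols, RNA was turned into cDNA by 2 rounds of amplification (Ovation PICO WTA, then TransPlex WTA), which can widen the spread of dim transcripts. The table held 23332 probe sets with values from 2.67 to 14.69, all 8 columns were matched to samples, and 0 belonged to others. The platform annotation gave 14996 probe sets 1 symbol, 1019 several and 7317 none. Symbols were updated by gene ID through RefSeq (GRCm38.p6, used for names and for the windows before starts), which held 14941 of the single-symbol rows.

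The comparison of diets used limma 3.58.1 with R 4.3.3 (two-sided, high fat minus control diet, Benjamini-Hochberg over the 16015 probe sets with a symbol, threshold 0.05), checked on simulated data. Correlations used exact permutation computed with numpy 2.4.6, with ranks and the Benjamini-Hochberg adjustment from scipy 1.17.1. Genes and lists were chosen with earlier results of these data known. Named are all members, the 4 genes of each list with the smallest limma p, the first 3 measured genes of each marker list, and the 5 genes most like Uhrf1. Alternatives changed the scaling, the probe sets tested, the variance model, the replicate block and the background, and left out each array.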

Additional observations from a re-analysis of the deposited data

Results flagged for a closer look

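In 55 named genes, each diet group of 4 pools was checked for a pool that stood far from the rest, with a gap to the nearest pool above 0.829 of the group's range. Of 110 groups 8 did so, and chance gives about 1 in 20, so the number of such groups is no pattern in itself. Among the 8 enzymes of the family no group did. Mbd3 read at 10.74 in high fat diet replicate 3, with the nearest pool at 7.67. Mbd6 read at 7.69 in high fat diet replicate 2, with the nearest at 6.81. Ooep read at 9.85 in control diet replicate 4, with the nearest at 8.01, and Trim28 at 8.25 in control diet replicate 2, with the nearest at 7.45. Fam174c read at 6.40 in high fat diet replicate 4, below the nearest at 6.82, and Gata4 at 6.77 in the same pool, below 6.91. Neil1 read at 4.67 in control diet replicate 1, below 4.89, and Tdrd1 at 5.73 in high fat diet replicate 3, above 5.4, both below background.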

How the results depend on the processing

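The number of members called was 0, as was the number of pathway genes called, in all 16 settings of the scaling, the probe sets tested, the variance model, the replicate block and the left-out arrays. The differences of Uhrf1 (-2.21 to -0.90), Dnmt3b (-1.65 to -0.92), Uhrf2 (0.05 to 0.40) and Tet3 (0.18 to 0.55) kept their direction in every setting that could be run for them. Raising to the 95th or 99th percentile replaced all values of Uhrf2 (0.36 and 0.40), and the 99th replaced all values of Tet3 (0.40). Those results are the diet difference of the percentile itself and could not turn, so they say nothing of direction. The upper end of the Uhrf2 range is such a value. Over all probe sets the 1 call became 3 with unnamed probe sets included and 0 with quantile normalization, with cyclic loess and with the replicate block, and its range was 0 to 2 when each array was left out (0 without any of control diet replicates 1, 3 and 4 and high fat diet replicates 2, 3 and 4). The cause was not tested. Of the members, 6 lay below the median of all probe sets, and 4 to 7 did so over the same settings, a count added after the data were seen. The direction of Dnmt3a turned with median centring (-0.05) and cyclic loess (-0.13). That of Tet2 (-0.40 to 0.45 with an array left out) turned with median centring (-0.12) and array weights (-0.16) and without control diet replicate 2 (-0.14) or high fat diet replicate 3 (-0.12) or 4 (-0.40). Raising values to the receptors' percentile turned Dnmt3l (0.31 at the 95th, 0.40 at the 99th) and Dnmt1 (0.02 at the 99th), as the percentile itself differs between diets. Correlations of Uhrf1 called were 0, and 0 to 2 with an array left out (Dnmt3b without high fat diet replicate 2, Dnmt3b and Tet3 without high fat diet replicate 3). With an array left out the value ran from -0.61 to 0.18 for Uhrf2 and from -0.39 to 0.33 for Tet2. The correlation with Uhrf2 turned with the diet means subtracted (0.12) and without high fat diet replicate 4 (0.18), that with Tet2 without high fat diet replicate 4 (0.33), and that with Dnmt3a without subtraction of array medians (-0.34) and with quantile normalization (-0.33). No member had a second single-symbol probe set to try, and Uhrf2 and Dnmt3l were not tested once dim probe sets were left out. Replicate numbers do not mark a shared litter or day in the labels, the deviations of equally numbered pools correlated at -0.019 to 0.084, and 2 of 8 arrays correlated best with their own number, so the replicate block is not read as a pairing. Values near the receptors' signal limit Uhrf2, Dnmt3l and the low pools of Uhrf1.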
